A study of Mus musculus with 9 samples.

Results

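Fatty acid oxidation in the liver was followed here across 38 genes. They encode enzymes of mitochondrial and peroxisomal beta-oxidation, the last enzyme of ketone body synthesis, and regulators and other proteins tied to these pathways. The genes were named by function, and each was taken from the array annotation by its gene name. Eci1 and Eci2 are listed on the array as Dci and Peci. The list was chosen with earlier results of these data known, so counts of calls among the 38 genes are descriptions only. All 38 were found, of 27339 genes and unnamed transcripts on the array, and all 38 were among the 17633 features that passed a filter on dim probes. The genes were grouped, each once, as 19 mitochondrial, 1 ketogenic, 14 peroxisomal and 4 regulatory. Eci2 was counted as mitochondrial, although its array name, Peci, is that of a peroxisomal isomerase. For 37 of them the signal was well above background on all 9 arrays. The remaining gene, Hao2, was well above background only on the 3 arrays of livers from the high-fat diet alone (HFD), so it passed the filter through the group where it is high.

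The livers came from male C57bl/6J mice aged 16 weeks after 12 weeks on 1 of 3 diets. HFD+APS mice ate a high-fat diet with APS, a polysaccharide preparation from Astragalus root, mixed in at 40 g per kg of diet. HFD mice ate the same high-fat diet (Research Diets D12492, 60 kcal% fat) without APS, and chow mice ate standard chow. Each group was measured on 3 arrays, 1 per liver, and the 9 livers were chosen by the study from 24 mice by tissue staining and triglyceride, so they are not a random draw from each diet. The comparison of HFD with chow asks what the diet did, and that of HFD+APS with HFD asks what the supplement added to it.

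In hepatocytes, fatty acids are joined to coenzyme A, carried into mitochondria as carnitine esters and shortened in repeated rounds of dehydrogenation, hydration, dehydrogenation and thiolysis. Electrons pass to the respiratory chain through electron-transfer flavoprotein, and much of the acetyl-CoA becomes ketone bodies during fasting. Peroxisomes shorten very long, branched and dicarboxylic fatty acids by a parallel route with its own enzymes. The nuclear receptor PPAR alpha is a main activator of many of these genes in rodent liver.

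Levels are on a log2 scale, with each array's processed signals set against their own upper quartile (the 75th percentile), so they compare one gene between arrays and not different genes. Tests are from limma, fitted over all 17633 features, with Benjamini-Hochberg adjusted p under 0.05 as the threshold. Intervals are 95% intervals from the same fit. All 10 hepatocyte marker genes passed the filter on dim probes. The arrays lay on 3 slides. Slide 1 held the 3 chow arrays, slide 2 the 3 HFD arrays and HFD+APS 1, and slide 3 HFD+APS 2 and HFD+APS 3. Slide and diet therefore cannot be told apart in the comparisons with chow. HFD+APS and HFD can be compared within slide 2 alone, by 1 array against 3. In whole liver, fewer cells of a type and less RNA per cell cannot be told apart.

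On the high-fat diet, most of the pathway showed no difference past the threshold, and the genes that did change were divided in direction. Hadh, Abcd2, Hao2, Vnn1 and Ucp2 were higher in HFD livers than in chow livers, and Ehhadh was lower. These 6 of 38 genes stand beside 10.8% of all features called in either direction in that comparison, 4.3% higher and 6.48% lower. In sign, 19 of the 38 differences were above 0 and 19 below. Without Hao2, which could be tested only because the HFD arrays were bright, 5 of 37 genes were called. With slide as a random block, Vnn1 kept its call (limma adjusted p 0.0455), and the adjusted p of the other 5 genes lay between 0.0578 and 0.0795. The median log2 difference of the 38 genes was -0.006, against -0.047 over all features. The HFD and chow arrays did not overlap for 11 genes, 5 higher and 6 lower in HFD, where 38.7% of all features did not overlap, 16.1% higher and 22.6% lower. The 95% interval lay within 2-fold either way for 32 of the 38 genes, and for all 19 mitochondrial genes.

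With APS added to the high-fat diet, 1 of the 38 genes passed the threshold, where 1.38% of all features did, 0.437% as higher and 0.947% as lower. It was Hao2, which was lower in HFD+APS livers than in HFD livers and entered the test through the HFD arrays alone. None of the 37 genes above background on all arrays passed. An unadjusted p under 0.05 was found for 6 of the 38 genes, Hao2 included, and for 17.7% of all features. The median log2 difference of the 38 genes was -0.008, against 0.003 over all features. The arrays of the groups did not overlap for 6 genes, 1 higher and 5 lower in HFD+APS, where 24.4% of all features did not, 12.7% higher and 11.7% lower. Those were Amacr, higher in HFD+APS, and Hadh, Pex11a, Hao2, Vnn1 and Ucp2, lower in HFD+APS. Between HFD+APS and chow livers, 0 of the 38 genes passed limma's adjusted threshold, and 3.58% of all features did, 0.913% as higher and 2.67% as lower. An unadjusted p under 0.05 was found for 8 of the 38 genes and for 25% of all features.

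**Figure D1:**
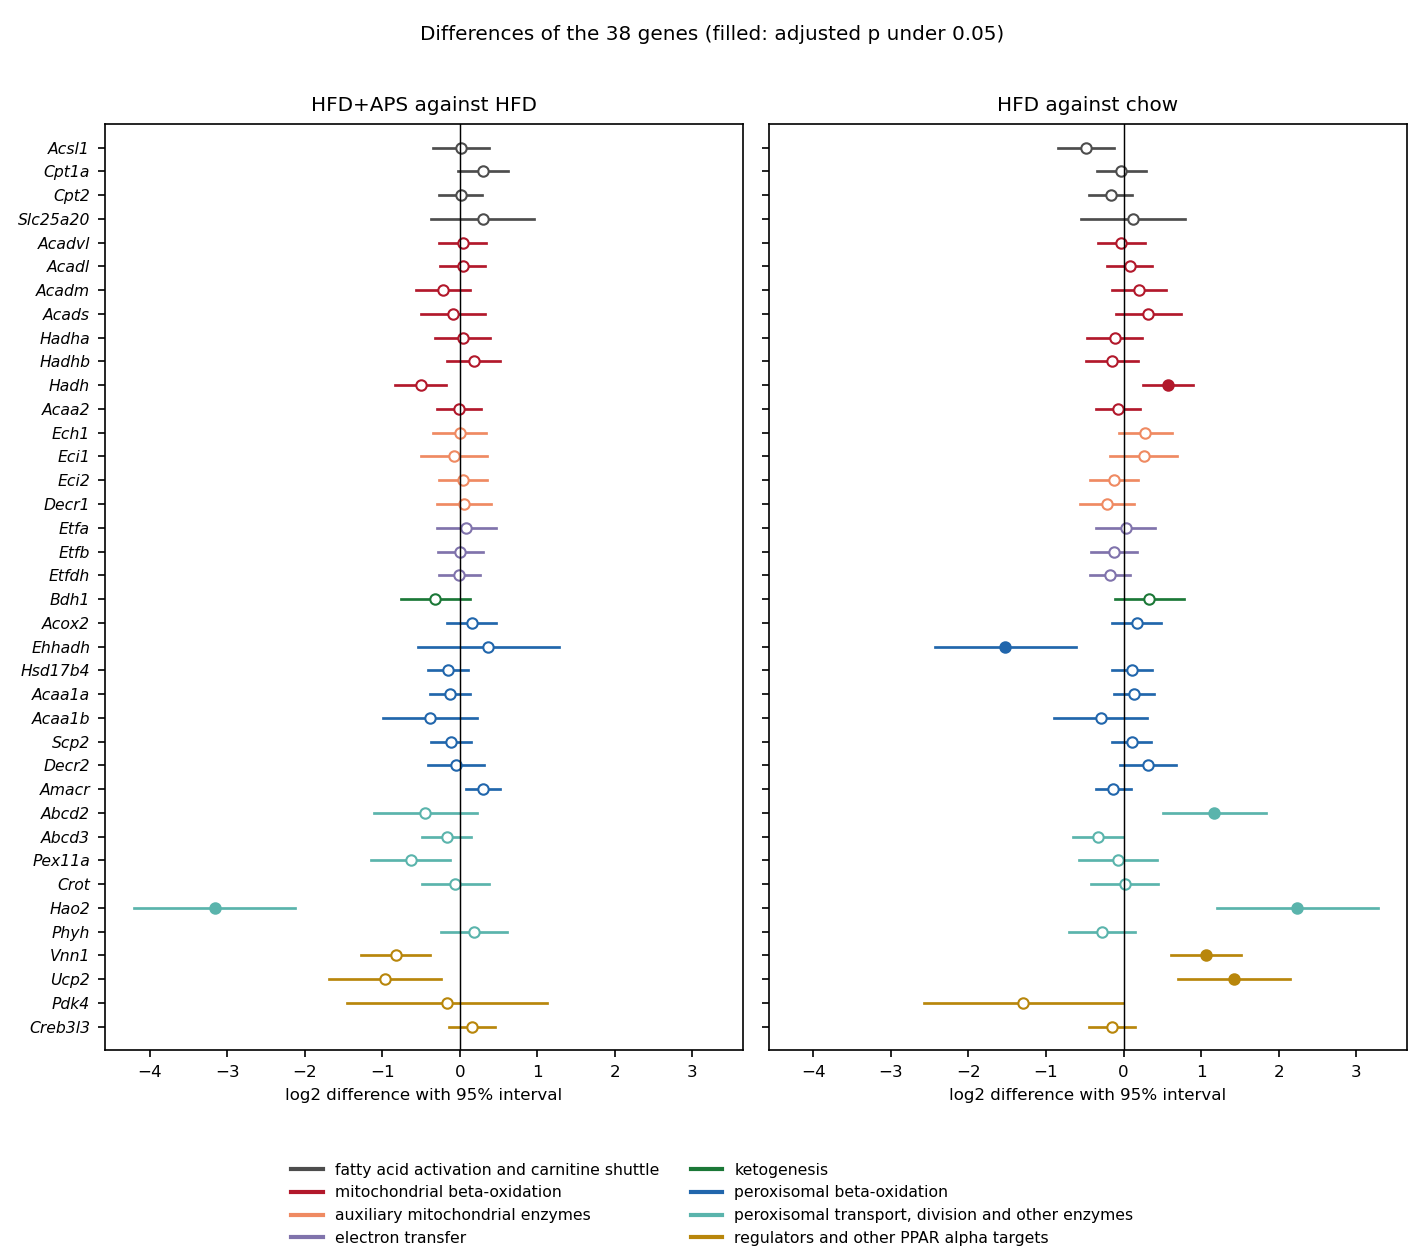
Log2 differences of the 38 genes, HFD+APS against HFD on the left and HFD against chow on the right, with 95% intervals from limma. Colours give the role of each gene and filled points mark an adjusted p under 0.05. Most intervals cross 0. In HFD against chow 9 stand clear of it, those of the 6 genes past the threshold and of Acsl1, Abcd3 and Pdk4, and in HFD+APS against HFD 6 do, those of Hadh, Amacr, Pex11a, Hao2, Vnn1 and Ucp2. The Hao2 points use signals near background, so its folds in the text are bounds.

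The 4 genes of fatty acid activation and the carnitine shuttle did not pass the threshold in any comparison. Acsl1, the acyl-CoA synthetase that activates long-chain fatty acids in liver, had levels of 8.48, 8.06 and 8.13 on the HFD+APS arrays, 8.26, 8.36 and 8.01 on the HFD arrays, and 8.70, 8.86 and 8.51 on the chow arrays. Every chow array was above every array of both high-fat groups. The difference was -0.48 ± 0.16 (SE) for HFD against chow, with an adjusted p of 0.0838 in limma, and -0.47 for HFD+APS against chow, with an adjusted p of 0.119. Acsl1 was read by 3 probes, and the other 2 gave -0.84 each for HFD minus chow. With the mean of all detected probes in place of the brightest one, limma's adjusted p for Acsl1 in HFD against chow was 0.0358, and after normexp background correction with quantile normalization it was 0.0270.

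Cpt1a encodes the outer-membrane carnitine palmitoyltransferase that controls entry of fatty acids into mitochondria. At the probe used, its levels were 6.29, 5.84 and 5.99 on the HFD+APS arrays, 5.91, 5.70 and 5.61 on the HFD arrays, and 5.70, 5.81 and 5.79 on the chow arrays. HFD+APS 1 was the highest of all 9. The HFD+APS arrays lay above all chow arrays but overlapped the HFD arrays. The difference was 0.30 for HFD+APS against HFD, with a 95% interval of -0.02 to 0.62 and an adjusted p of 0.307, and -0.03 for HFD against chow, with an interval of -0.35 to 0.29. Against chow the HFD+APS difference was 0.28 at this probe (adjusted p 0.262) and -0.30 at a second Cpt1a probe, so its direction depends on the probe. That second probe gave 0.07 for HFD+APS minus HFD and -0.38 for HFD minus chow. Cpt2, the inner-membrane transferase, and Slc25a20, the carrier between both, differed between HFD and chow by -0.17 and 0.12.

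The core of mitochondrial beta-oxidation has 8 genes here. The acyl-CoA dehydrogenases differ in the chain length they prefer. In HFD minus chow they gave -0.03 for Acadvl (very long chains), 0.08 for Acadl (long), 0.20 for Acadm (medium) and 0.32 for Acads (short). None of these 4 passed the threshold, and the adjusted p of Acads was 0.268. For HFD+APS minus HFD the same genes gave 0.04, 0.04, -0.21 and -0.09. Acaa2, the mitochondrial thiolase, differed by -0.07 between HFD and chow and by -0.01 between HFD+APS and HFD.

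Hadh, the dehydrogenase that acts on short- and medium-chain hydroxyacyl-CoA in the matrix, was the 1 mitochondrial gene to pass the threshold. Its levels were 5.75, 6.05 and 5.97 on the HFD+APS arrays, 6.49, 6.51 and 6.27 on the HFD arrays, and 5.64, 6.05 and 5.87 on the chow arrays. All 3 HFD arrays were above the other 6, and HFD+APS and chow arrays overlapped. Hadh was 1.49-fold higher in HFD than in chow livers (log2 difference 0.57 ± 0.14 SE, limma adjusted p 0.0419). The difference between HFD+APS and HFD livers was -0.50, with an adjusted p of 0.131 and a within-slide difference of -0.68. The call against chow was lost on leaving out any array but HFD+APS 1, with adjusted p up to 0.110. That call was also lost with no filter on dim probes, with only the groups compared, and with slide or replicate number as a block.

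Hadha and Hadhb encode the 2 subunits of the mitochondrial trifunctional protein, which runs the later steps for long chains. They are transcribed head to head. In RefSeq (GRCm38.p6) their starts are 273 bases apart, on opposite strands, and the windows of 250 bases upstream of each start overlap over 228 bases, at chr5:30155003-30155230. That overlap is shown on the strand of Hadhb because it belongs to both windows.
Hadha-Hadhb window overlap: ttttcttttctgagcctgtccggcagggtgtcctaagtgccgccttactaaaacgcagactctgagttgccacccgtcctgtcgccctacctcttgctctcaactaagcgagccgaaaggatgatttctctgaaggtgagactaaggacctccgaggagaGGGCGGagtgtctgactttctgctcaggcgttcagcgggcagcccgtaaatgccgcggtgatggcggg
The capitals mark the 1 occurrence of GGGCGG, the core of the GC box, searched on both strands. The same letters occur in 35.7% of the 32851 promoter windows of all genes. Those windows are 300 bases long, so the share is not that of a stretch of 228 bases.

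Neither gene passed the threshold. In HFD minus chow, Hadha gave -0.12, with an interval of -0.48 to 0.24, and Hadhb gave -0.15, with an interval of -0.49 to 0.19. In HFD+APS minus HFD, Hadha gave 0.04 and Hadhb gave 0.18. Hadha was read by 2 more probes, which lie at the opposite end of the gene's mm9 positions. Those gave -0.80 and -0.94 for HFD minus chow, and 0.36 and 0.45 for HFD+APS minus HFD. Both were dimmer than the probe used, and the one that gave -0.80 was well above background on 7 of the 9 arrays. A brightest-probe rule and a rule that averages probes therefore give different values for Hadha, and why the probes differ was not tested.

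**Figure D2:**
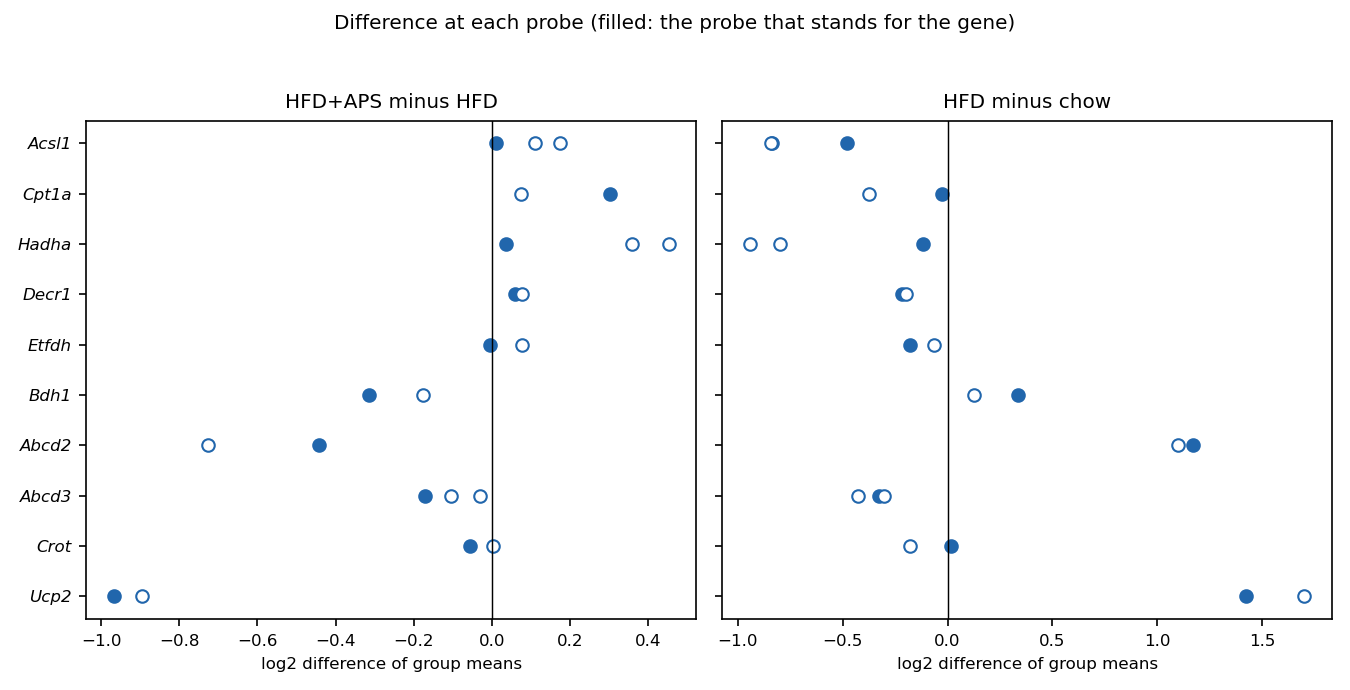
Log2 difference of group means at each detected probe of 10 of the 11 genes with more than 1, HFD+APS minus HFD on the left and HFD minus chow on the right. Filled points are the brightest probes, used for the gene. In HFD minus chow the Hadha probes lie between -0.94 and -0.12, and the Acsl1 probes between -0.84 and -0.48.

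The 4 auxiliary enzymes handle double bonds that the main spiral cannot. Ech1, a dienoyl-CoA isomerase, had levels of 5.69, 5.82 and 5.88 on the HFD+APS arrays, 5.99, 5.87 and 5.54 on the HFD arrays, and 5.64, 5.60 and 5.32 on the chow arrays. Only HFD 3 of the HFD arrays fell into the chow range. Its difference for HFD against chow was 0.28, with a limma adjusted p of 0.226. Eci1, an enoyl-CoA isomerase, had levels of 6.36, 6.49 and 6.63 on the HFD+APS arrays, 6.73, 6.81 and 6.17 on the HFD arrays, and 6.22, 6.52 and 6.18 on the chow arrays. HFD 3 was again the lowest HFD array and was below every chow array. The difference was 0.26 for HFD against chow and -0.07 for HFD+APS against HFD. Eci2, a second isomerase counted here as mitochondrial, and Decr1, the mitochondrial dienoyl-CoA reductase, gave -0.13 and -0.22 for HFD against chow.

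None of the 3 electron transfer genes passed the threshold. Etfa, a subunit of electron-transfer flavoprotein, had levels of 5.30, 5.43 and 5.36 on the HFD+APS arrays, 5.5, 5.45 and 4.88 on the HFD arrays, and 5.28, 5.31 and 5.15 on the chow arrays. HFD 3 was the lowest of all 9, while HFD 1 and HFD 2 were the highest. Etfdh, which passes the electrons to ubiquinone, had levels of 6.37, 6.17 and 6.19 on the HFD+APS arrays, 6.31, 6.31 and 6.12 on the HFD arrays, and 6.35, 6.56 and 6.37 on the chow arrays. All chow arrays were above all HFD arrays, by little. The difference for Etfdh in HFD against chow was -0.18, with an interval of -0.44 to 0.08 and a limma adjusted p of 0.316. Etfb, the partner subunit of Etfa, gave -0.12 for HFD against chow and 0.01 for HFD+APS against HFD.

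Bdh1 makes hydroxybutyrate from acetoacetate as the last step of ketone body synthesis. Its levels were 5.93, 6.12 and 6.30 on the HFD+APS arrays, 6.76, 6.47 and 6.07 on the HFD arrays, and 5.95, 6.29 and 6.05 on the chow arrays. HFD 1 and HFD 2 were above the other 7 arrays, while HFD 3 lay within the chow range. The difference was 0.34 for HFD against chow (interval -0.11 to 0.78, limma adjusted p 0.272) and -0.32 for HFD+APS against HFD (interval -0.76 to 0.13, adjusted p 0.429). A further list held 8 ketone body genes. In HFD against chow, 1 of them passed the threshold as higher and 0 as lower, where 4.3% and 6.48% of all features did. That gene was Slc16a7, a monocarboxylate transporter, with a difference of 0.81 and a limma adjusted p of 0.0233, which rose to 0.0687 when 1 array was left out.

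The largest fall in HFD livers was in the peroxisomal route. Ehhadh, the bifunctional enzyme that hydrates and dehydrogenates straight-chain and dicarboxylic acyl-CoA, had levels of 6.35, 4.89 and 5.07 on the HFD+APS arrays, 5.15, 5.29 and 4.75 on the HFD arrays, and 6.18, 7.09 and 6.49 on the chow arrays. All HFD arrays were below all chow arrays. HFD+APS 1 lay within the chow range, and HFD+APS 2 and HFD+APS 3 lay within the HFD range. Ehhadh was 2.87-fold lower in HFD than in chow livers (log2 difference -1.52 ± 0.40 SE, limma adjusted p 0.0465). Leaving out HFD+APS 3, or any single array of the HFD or chow groups, ended the call, with adjusted p up to 0.141. It was also lost with slide as a random block (adjusted p 0.0758), with the replicate number as a block and with no filter on dim probes (0.0805).

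The HFD+APS arrays were divided for Ehhadh. HFD+APS 1 exceeded the mean of the HFD arrays of its own slide by 1.28, while the mean of the HFD+APS arrays on slide 3 differed from HFD by -0.09. Against chow, the HFD+APS difference was -1.15 with a limma adjusted p of 0.125 over all arrays, and -1.61 with an adjusted p of 0.0170 without HFD+APS 1. Ehhadh thus passed the threshold in that comparison once that array was left out.

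None of the other 7 genes of peroxisomal beta-oxidation passed the threshold. In HFD minus chow, Hsd17b4, the second bifunctional enzyme, and Scp2, a thiolase and lipid carrier, gave 0.11 and 0.11. In the same comparison Acox2, the oxidase of branched chains and bile acid precursors, gave 0.17. Decr2, the peroxisomal dienoyl-CoA reductase, gave 0.32 there, with a limma adjusted p of 0.208. Amacr, the racemase of branched-chain acyl-CoA, was steady within groups. Its levels were 6.97, 6.74 and 6.77 on the HFD+APS arrays, 6.53, 6.53 and 6.54 on the HFD arrays, and 6.65, 6.64 and 6.69 on the chow arrays. Every HFD+APS array was above every HFD and chow array, and every HFD array was below every chow array. The difference was 0.30 for HFD+APS against HFD (limma adjusted p 0.170) and -0.13 for HFD against chow (adjusted p 0.392).

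Acaa1a and Acaa1b encode near-identical peroxisomal thiolases, and probes for one may read the other. The brightest Acaa1a probe gave 0.13 for HFD minus chow and -0.13 for HFD+APS minus HFD. Another Acaa1a probe gave -0.05 and -0.16, so the sign for HFD minus chow differed between probes of the gene. The Acaa1b probe gave -0.30 and -0.39 in the same comparisons. Whether any of these probes reads transcripts of the other gene was not tested. Across groups, the Acaa1b probe ranged between 6.73 and 7.14 on the HFD+APS arrays, 6.81 and 7.65 on the HFD arrays, and 7.32 and 7.999 on the chow arrays, so no HFD+APS array reached the chow range. Its difference for HFD+APS against chow was -0.68 with a limma adjusted p of 0.158.

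Hao2 encodes a peroxisomal oxidase of long-chain hydroxy acids. Its levels were -5.14, -4.61 and -6.13 on the HFD+APS arrays, -1.59, -1.99 and -2.82 on the HFD arrays, and -4.40, -3.86 and -4.86 on the chow arrays. Only the 3 HFD arrays were well above background, and they were above the other 6. Hao2 was thus admitted to the test by the brightness of the HFD group, and its calls are not independent of that filter. The fold changes are therefore lower bounds in respect of dim signal, set against the dimmest probe that was well above background on each array. They do not allow for the spread between arrays. On these terms Hao2 was at least 4.04-fold higher in HFD than in chow livers (limma adjusted p 0.0244). It was at least 4.22-fold lower in HFD+APS than in HFD livers (adjusted p 0.0222). The limma intervals of the log2 differences, which use the signals near background, were 1.20 to 3.28 for HFD against chow. For HFD+APS against HFD they were -4.20 to -2.12.

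On slide 2, HFD+APS 1 was below all 3 HFD arrays. A fit that took slide as a fixed block leaves 1 HFD+APS array against 3 HFD arrays, and limma's adjusted p for Hao2 was then 0.210. The call against HFD was lost on leaving out HFD 1, HFD 2 or HFD+APS 3, with adjusted p up to 0.0658. The call of HFD against chow did not survive the loss of HFD 1, HFD 2 or any 1 chow array, with adjusted p up to 0.0734.

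Abcd2 carries very long-chain fatty acids into peroxisomes. The probe used crosses an exon junction at chr15:91005118-91008671 on the minus strand of mm9, and is shown because its call rests on spliced message.
Abcd2 probe: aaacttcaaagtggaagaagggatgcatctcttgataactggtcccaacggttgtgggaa
Its levels were -2.21, -1.11 and -1.80 on the HFD+APS arrays, -1.11, -1.01 and -1.69 on the HFD arrays, and -2.65, -2.37 and -2.28 on the chow arrays. The chow arrays were the 3 lowest, and HFD+APS 2 lay at the level of HFD 1. Abcd2 was 2.25-fold higher in HFD than in chow livers (log2 difference 1.17 ± 0.29 SE, limma adjusted p 0.0411), and a second probe gave 1.1. This call was lost on leaving out HFD+APS 3 or any 1 HFD or chow array, with limma adjusted p up to 0.109. The difference was -0.44 for HFD+APS against HFD, with an interval of -1.11 to 0.23.

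Its relative Abcd3, the most studied peroxisomal membrane transporter of this family, had a difference of the opposite sign that did not pass the threshold. Its levels were 7.02, 6.75 and 7.01 on the HFD+APS arrays, 7.25, 7.14 and 6.90 on the HFD arrays, and 7.26, 7.52 and 7.49 on the chow arrays. The chow arrays were the 3 highest. The difference was -0.33 for HFD against chow (limma adjusted p 0.146) and -0.50 for HFD+APS against chow (adjusted p 0.0795). Pex11a, which promotes peroxisome division, gave -0.63 for HFD+APS against HFD and -0.71 for HFD+APS against chow, with adjusted p of 0.192 and 0.104. Crot, which makes medium-chain carnitine esters for export from peroxisomes, gave 0.02 for HFD against chow. Phyh, which starts alpha-oxidation of phytanic acid, gave -0.28.

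The 4 genes grouped here as regulatory, which are regulators and other PPAR alpha targets, split in direction. Those past the threshold in HFD against chow, Vnn1 and Ucp2, encode an enzyme and a carrier. Vnn1 encodes a pantetheinase that releases the coenzyme A precursor pantothenate and is a PPAR alpha target in mouse liver. Its levels were 4.10, 3.86 and 4.04 on the HFD+APS arrays, 4.89, 4.85 and 4.74 on the HFD arrays, and 3.45, 4.23 and 3.61 on the chow arrays. The HFD arrays were the 3 highest, and HFD+APS arrays fell within the chow range. Vnn1 was 2.09-fold higher in HFD than in chow livers (log2 difference 1.06 ± 0.20 SE, limma adjusted p 0.0186). Without chow 3 or HFD 2 the call was lost, with adjusted p up to 0.0615.

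For Vnn1 in HFD+APS against HFD the difference was -0.83 ± 0.20 SE, with a limma adjusted p of 0.0810. The array of slide 2 gave -0.73 and the arrays of slide 3 gave -0.88. Leaving out chow 2 brought the adjusted p to 0.0365, past the threshold. The difference between HFD+APS and chow was 0.24, with an interval of -0.21 to 0.68.

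Ucp2, a carrier of the mitochondrial inner membrane that is also abundant in macrophages, had levels of -0.24, -1.22 and -0.96 on the HFD+APS arrays, 0.27, -0.22 and 0.43 on the HFD arrays, and -0.996, -1.79 and -1.01 on the chow arrays. The HFD arrays were the 3 highest, and HFD+APS 1 was just below HFD 2. Ucp2 was 2.68-fold higher in HFD than in chow livers (log2 difference 1.42 ± 0.32 SE, limma adjusted p 0.0309), and its second detected probe gave 1.70. HFD+APS 3, HFD 1, HFD 3 and each chow array ended the call when left out singly, with adjusted p up to 0.0927. For HFD+APS against HFD the difference was -0.97 with an adjusted p of 0.172, made up of -0.40 within slide 2 and -1.25 for the arrays of slide 3.

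Markers of macrophages, stellate cells and endothelial cells mostly had differences of the same sign as Ucp2. Of 15 Kupffer cell and macrophage markers, 14 were above 0 in HFD minus chow, with a median of 1.04, and 0 passed limma's adjusted threshold, with 10 at an unadjusted p under 0.05, where 31.3% of all features had one. In HFD+APS minus HFD 14 were below 0, with a median of -0.16 and 0 past the limma threshold or at an unadjusted p under 0.05. The median of the centred marker values ranged between -0.25 and 0.70 on the HFD+APS arrays, 0.13 and 0.50 on the HFD arrays, and -1.31 and -0.01 on the chow arrays. Of 9 detected markers of monocyte-derived macrophages, 2 were called higher in HFD against chow, where 4.3% of all features were. The median of the 9 was -0.86 in HFD+APS minus HFD, with 0 called. An unadjusted p under 0.05 in limma was found for 4 of them and for 17.7% of all features. Of 11 stellate cell markers, 10 were above 0 in HFD minus chow, with a median of 0.38 and 2 called higher, and 8 were below 0 in HFD+APS minus HFD. Of 9 detected endothelial cell markers, 9 were above 0 in HFD minus chow, with a median of 0.27 and 2 called higher, and 6 were below 0 in HFD+APS minus HFD. The 3 detected adipocyte markers were above 0 in HFD minus chow, with a median of 1.25, and 2 were below 0 in HFD+APS minus HFD (median -1.10). All 3 detected neutrophil markers were above 0 and then below 0, with medians of 1.66 and -1.20. None of these 2 lists had a call. In HFD minus chow 7 of 11 lymphocyte, 3 of 5 cholangiocyte and 2 of 3 red blood cell markers were below 0. The part of any of these cell types in the Ucp2 result was not tested.

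Pdk4, the kinase that turns off pyruvate dehydrogenase when fat is burned, had the largest spread of the 38 genes within both high-fat groups. Its levels were 2.26, 0.19 and 0.67 on the HFD+APS arrays, 0.54, 0.96 and 2.11 on the HFD arrays, and 2.32, 2.77 and 2.39 on the chow arrays. All chow arrays were above all others, with HFD+APS 1 and HFD 3 next. The difference was -1.29 ± 0.56 SE for HFD against chow (limma adjusted p 0.159). For HFD+APS against chow it was -1.45 with an adjusted p of 0.158, and -2.07 with an adjusted p of 0.0309 without HFD+APS 1. Creb3l3, a liver transcription factor that acts with PPAR alpha in fasting, gave -0.15 for HFD against chow and 0.16 for HFD+APS against HFD.

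**Figure D3:**
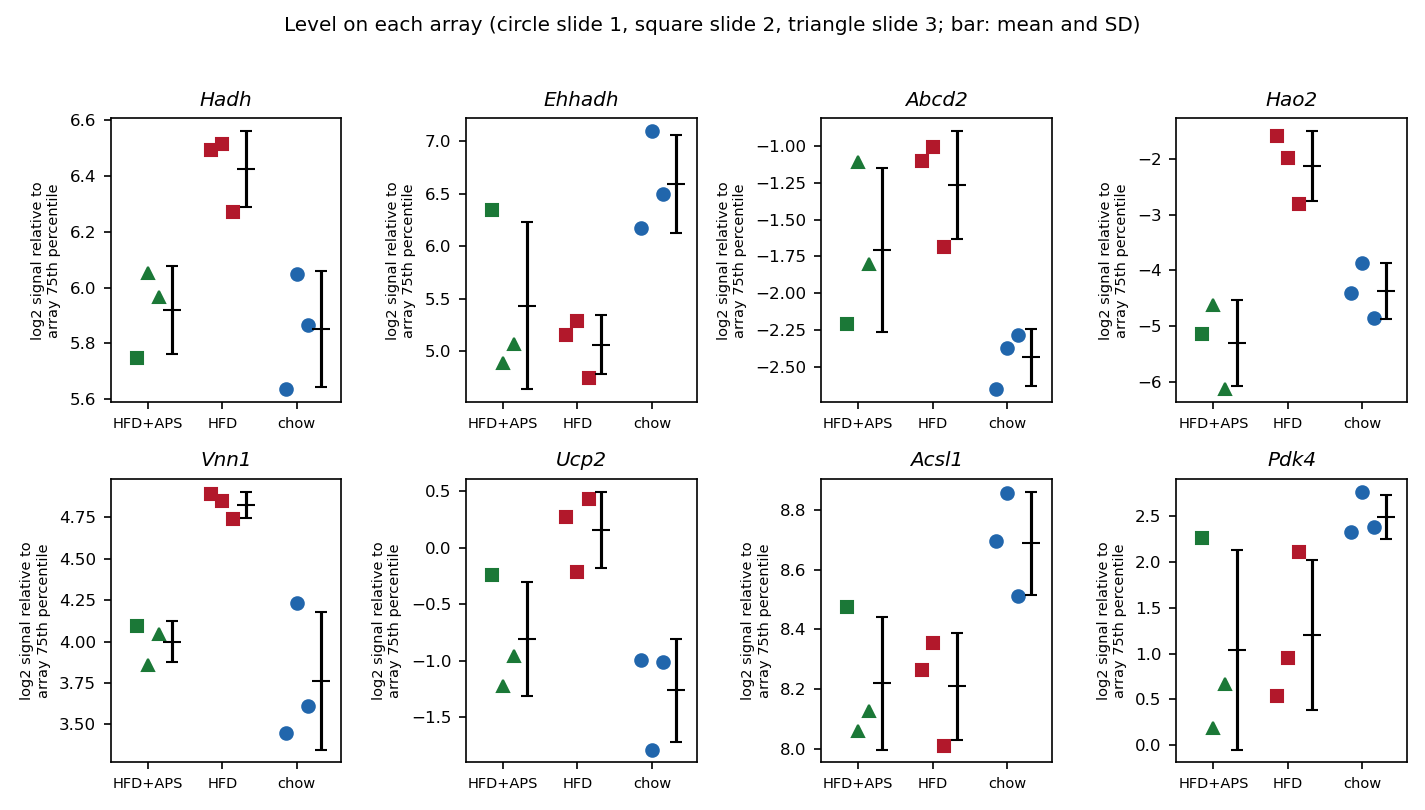
Levels on each array for the 6 genes past the threshold, Acsl1 and Pdk4, with HFD+APS on the left, HFD in the middle and chow on the right. Each panel has its own vertical axis in log2 signal above or below the upper quartile of the array, and bars give mean and SD of 3 arrays. The square in the HFD+APS group is HFD+APS 1, which lies apart from both triangles for Ehhadh and Pdk4.

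HFD 3 and chow 2 each stood at 1 end of their group for most of the 38 genes. HFD 3 was the lowest of the 3 HFD arrays for 33 of the 38 genes, including 18 of the 19 mitochondrial and 12 of the 14 peroxisomal genes, where it was the lowest for 46.4% of all features. Chow 2 was the highest of the chow arrays for 32 of the 38 genes, against 41.2% of all features. Among the HFD+APS arrays, HFD+APS 1 was the highest for 21 genes and the lowest for 11, against 38.6% and 42.1% of all features. HFD+APS 2 was the lowest for 24 of the 38 genes, against 34.7% of all features. That included 10 of the 14 peroxisomal and all 4 regulatory genes. HFD+APS 3 was the lowest for 3 genes, against 23.2% of all features. The genes share each array's RNA and scaling, so these counts describe arrays and are not independent.

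HFD 3 and chow 2 differed from the rest of their groups in other cells' markers too. The 3 detected neutrophil markers of 8 had a median centred value of 3.12 on HFD 3 and at most 0.18 on the other HFD arrays, while the defining marker Ly6g did not pass the filter on dim probes. The hepatocyte marker median was -0.28 on HFD 3, against -0.12 and 0.06 on the other HFD arrays. On chow 2 the Kupffer cell median was -1.31, against -0.36 and -0.01 on the other chow arrays. The part of these differences in the gene values was not tested. With both arrays left out, an alternative chosen after the values were seen, the median of the 38 genes in HFD against chow was 0.18 and 1 gene, Vnn1, was called. Hao2 no longer passed the threshold in HFD+APS against HFD under that alternative, with an adjusted p of 0.0584 in limma. Its difference was then -3.505, against -3.163 over all arrays, both read from signals near background in HFD+APS.

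**Figure D4:**
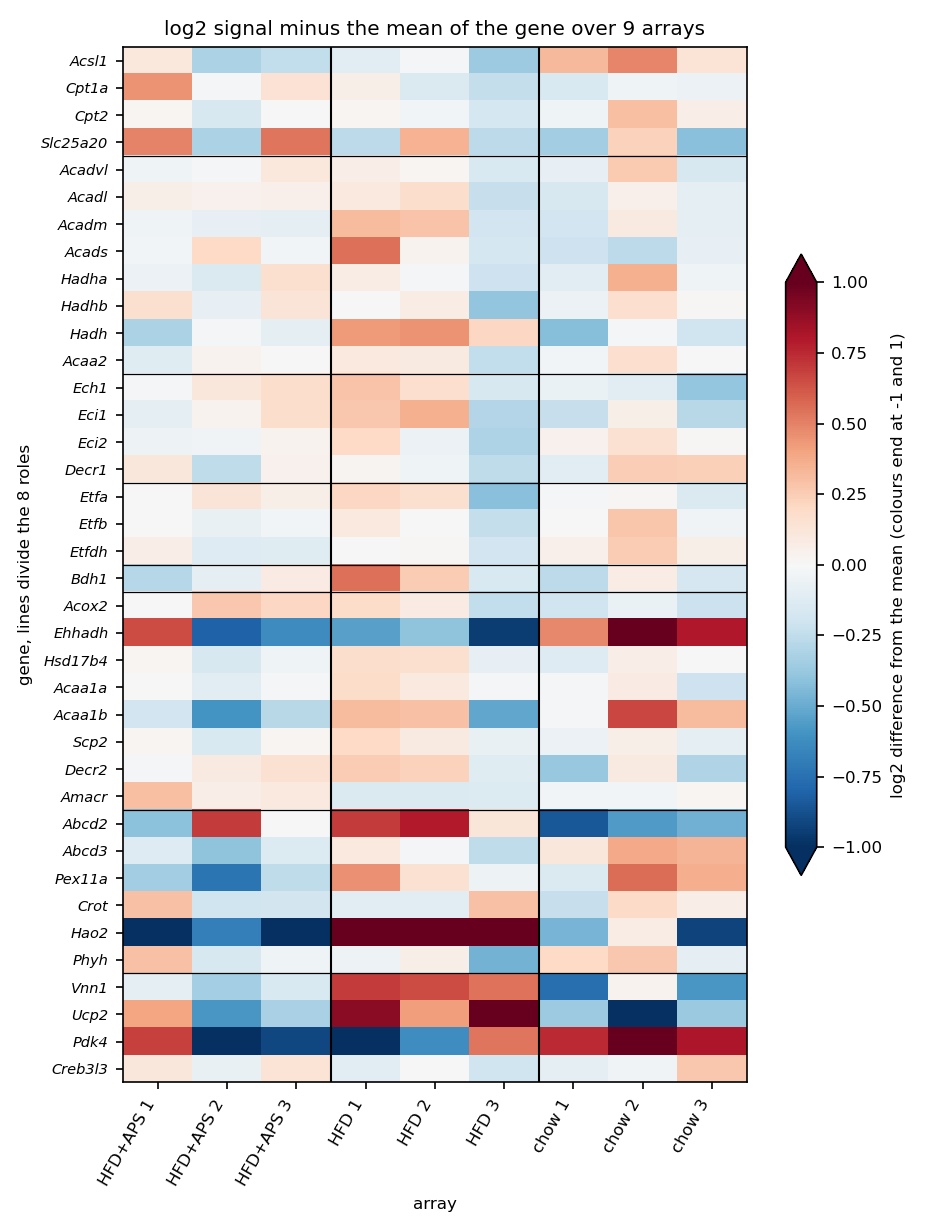
Log2 level of each of the 38 genes on each array minus that gene's mean over 9 arrays, with HFD+APS arrays on the left, then HFD and chow. Red is above and blue below the mean. The HFD 3 column is mostly blue beside the other HFD columns, and the chow 2 column is mostly red beside the other chow columns.

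Outside the 38 genes, 4 further lists of the pathway were read in the same fit. Of 23 measured genes of further mitochondrial oxidation, 1 was higher and 0 lower in HFD against chow. Among all features, 4.3% were called higher and 6.48% lower in that comparison. Of 45 further peroxisomal genes, 2 were higher and 1 lower. Acox3, a peroxisomal oxidase, was higher by 0.49 (limma adjusted p 0.0207). Of 36 measured genes of the PPAR alpha pathway and other regulators, 0 were higher and 3 lower, and 31 differences were below 0, with a median of -0.27. Over all features, 9693 of 17633 differences were below 0. HFD 3 was the lowest HFD array for 30 of the 36 genes of this list, against 46.4% of all features. Chow 2 was the highest chow array for 25 of the 36, against 41.2% of all features. Of the 10 hepatocyte markers, 8 were below 0 in the same comparison, with a median of -0.32, and Serpina1c and Tat were called lower. The part of these arrays and of the hepatocyte marker differences in the values of the list was not tested. Angptl4, a lipoprotein lipase inhibitor and PPAR target, was lower, with a difference of -0.79 (adjusted p 0.0223). Each of these calls was lost when 1 array was left out, with adjusted p up to 0.0663 for Acox3 and 0.0773 for Angptl4.

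In HFD+APS against HFD the 4 lists gave 1 call, where 1.38% of all features were called. It was Ivd, which oxidises a leucine product and was higher by 0.67 (limma adjusted p 0.0415). In HFD+APS against chow the lists gave 2, both lower, where 3.58% of all features were called. Those were Pex14, a docking protein of peroxisomal import, at -0.86 (limma adjusted p 0.0307), and Crat, the carnitine acetyltransferase, at -0.69 (adjusted p 0.0485). Without 1 array the adjusted p reached 0.134 for Ivd, 0.104 for Pex14 and 0.157 for Crat. The comparisons with chow share the chow arrays, and those with HFD share the HFD arrays.

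The promoters of the 38 genes were searched on both strands for 2 direct copies of AGGTCA with 1 base between them, the repeat that PPAR alpha is known to bind with RXR. RefSeq (GRCm38.p6) windows from 250 bases before to 50 after the start were on hand for 32 of the genes, in 37 windows. Abcd2, Acaa2, Amacr, Decr1, Hsd17b4 and Vnn1 were not searched. None of the 37 held the motif exactly or with 1 mismatch outside the spacer, and 0.0396% and 0.554% of the 32851 windows of all genes did. With up to 2 mismatches the repeat was present in 4 of the 37 windows, those of Acox2, Creb3l3, Etfa and Slc25a20, and in 3.86% of all windows. None of these 4 genes passed the threshold in any comparison. A match is a description of letters, and a missing match says nothing of binding elsewhere.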

How the data were processed

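The authors measured liver RNA of 9 mice on 9 Agilent arrays with a single dye, Cy3. The intensity of each spot is the processed signal, background-subtracted and detrended within its array by Feature Extraction, per the file headers (version 10.7.1.1; 10.7 in the submitters' processing notes). The authors deposited a second table of all samples on the log2 scale, whose normalization step is not given in the sources used here. It served as an alternative.

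In R 4.3.3 with limma 3.58.1 and data.table (1.17.8), 773 spot readings marked as outliers by the scanner software were left out, spots were averaged to 41174 probes and the 75th percentile of each array (214.4 to 272.8 before log2) was subtracted. A probe entered if well above background on at least 3 of the 9 arrays (26478 probes). For a gene with several probes the one with the highest mean signal was used, which left 17633 features with 5 missing values. The fit was checked on simulated data. Names came from the array files and RefSeq, and probe positions are those of mm9 in the files. Exons and UTRs were not annotated, beyond reading a junction from a position wider than the probe. The number of arrays limits the precision, with 6 residual degrees of freedom.

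The 38 genes and the further lists were chosen with earlier results of these data known. Values on each array are given for genes past the threshold in any comparison and, in each role, for the genes with the smallest p in HFD against chow and in HFD+APS against HFD. Abcd3, Pdk4 and the range of Acaa1b were added after their values were seen. Of the further lists, the 3 genes with the smallest p past the threshold in each comparison are named. Alternatives covered the normalization, the background correction, the deposited table, the dim-probe filter, the probe rule, the groups fitted, slide and replicate blocks, and leaving out each array. Replicate numbers were not used to pair arrays. Some results are not reported here.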

Additional observations from a re-analysis of the deposited data

How the results depend on the processing

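No value changed direction while called in any of the 3 comparisons. In HFD against chow, 6 of the 38 genes were called, with 7 (Acsl1 added) after normexp and quantile normalization or with the mean of all detected probes, 2 under no filter on dim probes, 1 with slide as a random block (consensus correlation 0.112), 4 with the replicate number as a block, and 0 to 6 when 1 array was left out. With chow 2 and HFD 3 both left out, chosen after the values were seen, 1 was called and the median difference was 0.179, against -0.006. Vnn1 was the 1 gene called under each of these except without chow 3 or without HFD 2. In HFD+APS against HFD, 1 gene was called, with 2 (Hadh and Hao2) after normexp and quantile normalization, 1 with the replicate block, and 0 to 2 when 1 array was left out. None (0) was called when probes had to be well above background on all 9 arrays, which removes Hao2, or with only the 2 groups compared, slide as a fixed block, or chow 2 and HFD 3 left out. In HFD+APS against chow, 0 were called, with 1 (Abcd3) after normexp and 0 to 2 when 1 array was left out. Over all features the calls ranged from 111 to 2679 around 1902 in HFD against chow, 17 to 571 around 244 in HFD+APS against HFD, and 23 to 1568 around 631 in HFD+APS against chow. Deviations of arrays with the same replicate number correlated between -0.175 and 0.164, so the numbers do not pair the arrays. The cause of the lost and gained calls was not tested. Signals near background limit Hao2 to bounds, and 3 arrays per group leave intervals that reach past 2-fold for 6 genes in HFD against chow.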
